A study of Mus musculus with 24 samples.

Results

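The genes described here are 9 regulators of brain and eye patterning, Six3, Emx2, Pax6, Otx1, Otx2, Gbx2, En1, En2 and Bhlhe22, among 26611 gene identifiers counted. They were taken from a list of forebrain, midbrain and eye regulators that was put together with results of these libraries known. They were thus chosen by function and by measured differences from wild type, among them those of the Kat6a -/- and double heterozygous groups. The libraries hold RNA of pharyngeal arches 1 and 2 from female C57BL/6 mouse embryos at E10.5. There were 6 genotypes with 4 replicates each: wild type (Kat6a +/+, Dlx5 +/+), Kat6a +/-, Kat6a -/-, Dlx5 +/-, Dlx5 -/-, and double heterozygotes that were Kat6a +/- and Dlx5 +/-. Kat6a encodes a histone acetyltransferase and Dlx5 a homeodomain factor of the lower jaw primordium. The wild-type and Kat6a -/- libraries all came from batch 2 and the Dlx5 -/- libraries all from batch 1, where a batch is 1 of 2 mouse facilities. The Kat6a +/- and Dlx5 +/- groups had 3 libraries in batch 2 and 1 in batch 1, and the double heterozygotes had 1 in batch 2 and 3 in batch 1.

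These genes are known for dividing the anterior neural plate into territories. Six3 and Pax6 act in the forebrain and the eye field, Emx2 and the Otx genes in the forebrain and midbrain, and Gbx2 and the Engrailed genes at and behind the boundary of midbrain and hindbrain, where Otx2 and Gbx2 repress each other. Several are also active outside the brain: Otx2 and Otx1 in cranial ectoderm, Pax6 in placodes and surface ectoderm, Gbx2 in the arches, and Emx2 in the urogenital tract.

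Library totals ran from 10406452 to 28198111 counts, with wild-type replicate 1 the deepest and the next at 16710291. Gene-level counts of the targeted genes overlapped between wild type and the homozygotes: Kat6a was at 148 to 247 CPM (a count relative to the scaled total of its library) in wild type and 211 to 242 CPM in libraries labelled Kat6a -/-, and Dlx5 was at 64.6 to 79.0 CPM in wild type and 57.7 to 67.4 CPM in libraries labelled Dlx5 -/-. The sources used here do not say which exons the alleles remove, and these counts do not check the labels. Arch mesenchyme markers summed to 1483 to 1960 CPM over all libraries. Neuron content varied within groups: on a score that averages the centred log2 CPM of 16 neuron markers, 10 libraries lay above 0. These were replicate 2 of wild type, of Kat6a +/- and of Kat6a -/-, 3 of the Dlx5 +/- libraries and all 4 double heterozygous libraries, and none of the Dlx5 -/- libraries. In whole arch RNA, fewer cells of a type and less RNA per cell cannot be told apart.

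Compared per gene length, the regulators were weakly expressed. Emx2 stood highest at a mean of 8.79 CPM per kilobase of gene (RPKM) over the 24 libraries, followed by Gbx2 at 3.44, Otx1 at 1.60 and Otx2 at 1.51 RPKM. Six3 (0.398), Bhlhe22 (0.368), Pax6 (0.283) and En2 (0.167) lay below 1 RPKM. En1 had a mean of 0.00956 RPKM and no library held more than 2 of its reads, so it was not tested, which leaves 8 of the 9 genes in every comparison below. By the same measure the median of 10 arch mesenchyme markers was 45.5 RPKM and that of 8 surface epithelium markers 15.3 RPKM.

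**Figure D1:**
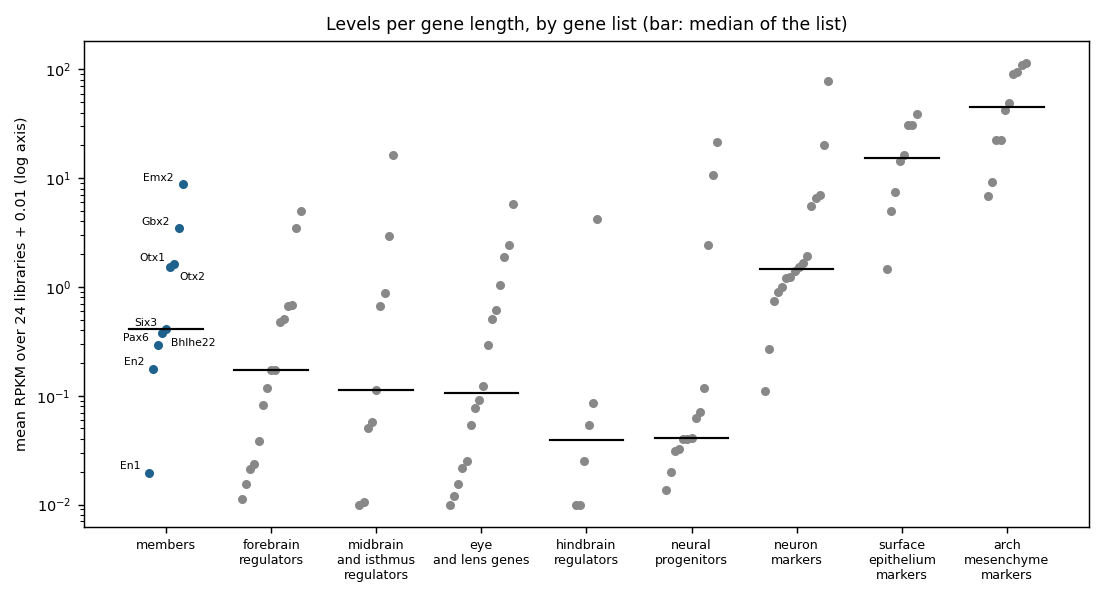
Mean RPKM over the 24 libraries (log axis, 0.01 added) for the 9 regulators (first column, named) and for 8 other gene lists; a point is a gene and a bar the list's median. Emx2, at 8.79 RPKM, is the only one of the 9 inside the range of the arch mesenchyme markers, which begins at 6.78 RPKM.

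Several genes typical of the brain wall were at 0 in most libraries. Of 15 other forebrain regulators, 7 passed the filter on low counts, and Rax, Fezf2, Vax1 and Lhx5 had 0 reads in 14, 20, 21 and 23 of the 24 libraries. Of 9 midbrain and isthmus regulators 4 were tested, with Pax5 at 0 in all 24 libraries and Wnt1 at 0 in 23. Of 16 eye and lens genes 6 were tested, and the retinal gene Atoh7 was at 0 in all libraries. The best expressed of these listed genes was Fgf8 at 16.2 RPKM, a growth factor gene that arch epithelium also uses. Hmx1 followed at 5.73 RPKM, a homeobox gene of the eye and ear that is also active in cranial mesenchyme, and then Lhx2 at 5.0 RPKM, which is active in arch muscle precursors as well. For some neural tube genes, picked after the values were seen, wild-type replicate 1 stood highest. It had 39 reads of Sox1 (1.40 CPM), 38 of Nkx2-1 (1.36 CPM), 22 of Olig2 (0.789 CPM) and 18 of Nr2e1 (0.645 CPM). Other libraries came near for Nkx2-1 alone, with wild-type replicate 4 at 1.09 CPM and Dlx5 +/- replicate 3 at 0.920 CPM. For Sox1, Olig2 and Nr2e1, wild-type replicate 4 had 0 reads each and Dlx5 +/- replicate 3 had 1, 0 and 0. Sox1 was at 0.875 CPM in Kat6a +/- replicate 1. Wild-type replicate 1 is also the deepest library. What part of the 9 genes' reads came from neural tissue was not tested.

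Six3 is a homeodomain repressor of Wnt genes that is needed for the forebrain and eye. It lies on chr17:85613608-85626191 (GRCm38). In wild type it was at 2.80, 1.8, 1.99 and 2.69 CPM in replicates 1 to 4. The Kat6a -/- libraries were at 0.377, 0.339, 0.517 and 0.264 CPM. All 4 lay below the lowest wild-type library. These values rest on 3 to 6 reads of Six3 per Kat6a -/- library, against up to 78 in wild type. The batch-adjusted fit put Kat6a -/- 2.62 below wild type on the log2 scale (SE 0.38), a 6.14-fold lower level. Because this contrast was among the results from which the genes were chosen, the value is a description and no test is given.

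Six3 was also low in libraries of other groups. The Kat6a +/- libraries were at 0.700, 0.870, 1.30 and 1.51 CPM, all below wild type, as was so for 1.76% of all genes. Double heterozygotes were at 0.821, 0.608, 1.78 and 0.414 CPM, again all below wild type, as was so for 3.30% of all genes. Dlx5 +/- libraries were at 1.30, 0.802, 2.21 and 3.28 CPM, with replicates 1 and 2 below every wild-type library. Dlx5 -/- libraries were at 2.18, 2.23, 2.23 and 2.18 CPM, inside the wild-type range. Whether Six3 follows the number of Kat6a copies was not tested. By mean level the order was Kat6a -/- at 0.374 CPM, double heterozygous 0.905, Kat6a +/- 1.10, Dlx5 +/- 1.90, Dlx5 -/- 2.20 and wild type 2.32, and every pair of neighbours in that order overlapped.

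Against wild type the fitted Six3 difference was -1.33 (SE 0.33) in Kat6a +/-, which did not pass the edgeR test over all genes (adjusted p = 0.146; 0.0782 to 0.999 over the alternatives). It was -1.99 (SE 0.41) in the double heterozygotes, as a description. Within batch 2 alone the differences were -2.62 (SE 0.35) for Kat6a -/-, -1.29 (SE 0.33) for Kat6a +/- and -1.51 (SE 0.54) for the 1 double heterozygous library there. These 3 comparisons share the wild-type libraries. Without the neuron-rich libraries the Kat6a -/- difference was -2.68 (SE 0.33).

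The RefSeq entries hold promoter windows for 6 of the 9 genes, and the 250 bases before the start are shown for Six3, which was low in Kat6a -/-, and for Otx2 and Pax6, whose Kat6a -/- libraries overlapped wild type. Windows in which the annotation places an exon of the gene itself are not shown; the Six3 window overlaps an exon of the gene model Gm28528. It lies inside the gene span given above, because the promoter table takes a Six3 start downstream of the first base of that span. Capitals mark TAAT or its reverse complement ATTA, the core to which many homeodomains bind, read on both strands. The windows are, in GRCm38.p6, chr17:85620584-85620833 (plus strand) for Six3, chr14:48667645-48667894 (minus strand) for Otx2 and chr2:105668646-105668895 (plus strand) for Pax6.
Six3: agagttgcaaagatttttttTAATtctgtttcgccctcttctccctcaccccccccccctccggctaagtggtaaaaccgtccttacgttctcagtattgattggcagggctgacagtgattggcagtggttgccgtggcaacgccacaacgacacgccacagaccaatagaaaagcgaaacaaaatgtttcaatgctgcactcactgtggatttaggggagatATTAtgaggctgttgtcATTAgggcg
Otx2: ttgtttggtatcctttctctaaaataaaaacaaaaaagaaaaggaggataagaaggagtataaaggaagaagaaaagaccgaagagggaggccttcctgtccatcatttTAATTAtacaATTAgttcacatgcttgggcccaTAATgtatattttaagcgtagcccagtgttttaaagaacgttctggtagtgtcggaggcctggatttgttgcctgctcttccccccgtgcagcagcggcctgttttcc
Pax6: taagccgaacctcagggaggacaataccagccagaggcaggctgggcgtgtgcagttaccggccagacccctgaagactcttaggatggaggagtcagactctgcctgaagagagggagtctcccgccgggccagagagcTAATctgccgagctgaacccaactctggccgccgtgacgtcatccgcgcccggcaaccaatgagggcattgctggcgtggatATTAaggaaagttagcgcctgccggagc
The core occurred 3 times in the Six3 window, 4 times in that of Otx2, where 1 pair of cores overlaps to form TAATTA, and 2 times in that of Pax6. It was present in 54.9% of 32851 such windows over all genes, and TAATTA in 4.84%. CG dinucleotides numbered 10 for Six3, 6 for Otx2 and 15 for Pax6, against a median of 6. A match is a description of the letters and not a binding site.

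Emx2, a homeodomain factor that patterns the cerebral cortex, lies on chr19:59458690-59465357. The Kat6a -/- group lay below the other 5 groups, which overlapped each other. Wild-type libraries were at 21.2, 27.2, 22.7 and 24.6 CPM and Kat6a +/- libraries at 21.3, 23.6, 27.3 and 26.3 CPM. Kat6a -/- libraries were at 11, 2.63, 13.0 and 7.23 CPM. The highest of these was below the lowest of all 20 other libraries. Kat6a -/- replicate 2, the lowest, was also the neuron-rich library of its group, with a neuron score of 1.86.

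The other groups overlapped wild type for Emx2. Dlx5 +/- libraries were at 28.8, 30.3, 25.6 and 25.6 CPM, Dlx5 -/- libraries at 23.8, 27.1, 23.7 and 25.1 CPM and double heterozygotes at 28.7, 26.8, 22.9 and 31.9 CPM. The fitted differences from wild type were 0.06 (SE 0.23) for Kat6a +/-, 0.22 (SE 0.22) for Dlx5 +/- and 0.10 (SE 0.30) for Dlx5 -/-, none past the test, with adjusted p of 0.949, 0.758 and 0.934. The Kat6a -/- value was -1.48 (SE 0.24) against wild type and -1.54 (SE 0.25) against Kat6a +/-, as descriptions. Without the neuron-rich libraries the Emx2 difference of Kat6a -/- from wild type was -1.12 (SE 0.16). The group order for Emx2 had 1 gap, between Kat6a -/- at 8.47 ± 4.57 CPM (SD, n = 4) and wild type at 23.9 ± 2.63 CPM, and no other.

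The antisense neighbours of Emx2 and Six3, looked at after the values were seen, were also measured. Emx2os, on chr19:59425104-59458635, was at 4.34, 3.84, 4.93 and 4.96 CPM in wild type and 2.49, 0.763, 2.33 and 2.73 CPM in Kat6a -/-. These groups did not overlap, as was so for 3.54% of all genes lying below, and the fitted difference was -1.11 (SE 0.24). Six3os1, on chr17:85601932-85618396, was at 9.25, 4.09, 7.18 and 6.06 CPM in wild type and 3.62, 1.95, 4.65 and 2.11 CPM in Kat6a -/-. Here the groups overlapped, with a fitted difference of -1.13 (SE 0.36). Both genes are partners of genes chosen with this contrast known, so the values are descriptions and no test is given. Whether counting used strand is not stated in the labels. The spans of Six3 and Six3os1 overlap, and a read there could have been given to either partner. The spans given here for Emx2 and Emx2os do not overlap, but the annotation used in counting is not stated.

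Gbx2 marks the anterior hindbrain side of the isthmus and is also an arch gene, on chr1:89927962-89931176. Wild-type libraries were at 8.61, 13.7, 10.2 and 10.7 CPM. Kat6a -/- libraries were at 4.23, 2.97, 5.94 and 2.73 CPM, with no overlap. The fitted difference was -1.43 (SE 0.19), a 2.69-fold lower level, and -1.44 (SE 0.22) within batch 2 alone, again a description. Without the neuron-rich libraries it was -1.18 (SE 0.20).

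The Gbx2 levels of the Dlx5 -/- group were low. Those libraries were at 5.10, 5.76, 6.03 and 4.68 CPM, all below the lowest wild-type library, as was so for 2.29% of all genes, and all below the Dlx5 +/- libraries at 6.89, 10.2, 9.85 and 8.36 CPM. The difference did not pass the test against either group: it was -0.71 (SE 0.25, adjusted p = 0.372) against wild type and -0.50 (SE 0.22, adjusted p = 0.455) against Dlx5 +/-, with edgeR adjusted over all genes. The batch term bears on both. Without it Gbx2 was -0.99 against wild type and was called (adjusted p = 0.0384), the only 1 of 32 alternatives in which it was, and the groups share no batch. In batch 1 the 4 Dlx5 -/- libraries can be set beside 1 Dlx5 +/- library, at 8.36 CPM, which is too few to test.

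In the remaining groups the Gbx2 means lay between the Dlx5 -/- and wild-type means. Kat6a +/- libraries were at 8.14, 6.49, 9.20 and 6.57 CPM and double heterozygotes at 9.31, 6.69, 6.01 and 7.12 CPM, both overlapping wild type. The Kat6a +/- difference from wild type was -0.43 (SE 0.18, adjusted p = 0.375). By mean the order ran from Kat6a -/- at 3.97 CPM through Dlx5 -/- 5.39, double heterozygous 7.28, Kat6a +/- 7.60 and Dlx5 +/- 8.81 to wild type at 10.8 CPM, with every pair of neighbours overlapping. Dlx3, an arch gene of the Dlx family, was the gene with the most similar pattern to Gbx2 (Pearson r = 0.87 over the 24 libraries).

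En2, on chr5:28165696-28172190, is the Engrailed gene of the midbrain and cerebellar primordium, and its level was near the limit of detection. Wild-type libraries were at 0.968, 0.982, 0.519 and 0.925 CPM and Kat6a -/- libraries at 0.302, 0.254, 0.0861 and 0 CPM. The groups did not overlap, but the Kat6a -/- values stand for 4, 3, 1 and 0 reads. The difference of -2.31 (SE 0.59) had the largest standard error of the 8 genes in this comparison. Double heterozygotes were also low, at 0.0846 to 0.548 CPM, overlapping wild type at its lowest library, while Kat6a +/- (0.260 to 0.791 CPM), Dlx5 +/- (0.276 to 1.34 CPM) and Dlx5 -/- (0.251 to 0.990 CPM) overlapped wild type more widely. En1, on chr1:120602487-120607991, acts with En2 in the midbrain. It had 2 reads in wild-type replicate 1, 1 read in each of 6 other libraries, and none in the Dlx5 +/- and double heterozygous groups, so no level or fold can be given.

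Bhlhe22, on chr3:18054325-18057514, encodes a helix-loop-helix repressor of differentiating neurons. Wild-type libraries were at 1.18, 2.29, 0.951 and 0.757 CPM and Kat6a -/- libraries at 0.604, 0.509, 0.172 and 0.441 CPM. These groups did not overlap, and the Kat6a -/- libraries were also below all Kat6a +/- libraries, which lay at 0.700 to 1.04 CPM. The difference from wild type was -1.54 (SE 0.37), from 2 to 8 reads per Kat6a -/- library, and leaving out wild-type replicate 2, the neuron-rich one with the highest level, made it -1.19. Dlx5 -/- libraries stood at the other end with 1.59, 1.72, 1.57 and 2.90 CPM. They overlapped wild type and the difference of 0.66 (SE 0.43, adjusted p = 0.610) did not pass the test, nor did that from Dlx5 +/- (0.57, SE 0.37, adjusted p = 0.528).

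The Otx genes and Pax6 did not separate Kat6a -/- from wild type. Otx2, on chr14:48656781-48667644, is the head organiser gene that opposes Gbx2. It was at 3.87, 3.19, 2.51 and 2.44 CPM in wild type and 2.26, 4.58, 1.98 and 4.85 CPM in Kat6a -/-, so that the Kat6a -/- libraries lay on both sides of the wild-type range. The difference was 0.15 (SE 0.34). In the double heterozygotes, at 0.730, 1.30, 3.05 and 1.32 CPM, 3 of 4 libraries were below every wild-type library, and the fitted difference was -1.41 (SE 0.47) with the batch term and -0.92 without it.

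Otx1, on chr11:21994764-22001651, is the Otx2 paralog of the dorsal forebrain and of sense organs. Its wild-type libraries were at 7.03, 4.42, 4.32 and 4.29 CPM and its Kat6a -/- libraries at 3.93, 3.65, 5.0 and 3.97 CPM, which overlap. The difference was -0.31 (SE 0.26), and -0.08 (SE 0.27) without wild-type replicate 1, the deepest library, with the most reads of the neural tube genes named above. Across all 6 groups Otx1 means lay between 4.00 and 5.12 CPM, and every pair of neighbours in the order of means overlapped.

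Pax6, on chr2:105668896-105698410, is the paired-box regulator of the eye, the cortex and several placodes. Wild-type libraries were at 1.94, 0.736, 1.56 and 1.26 CPM and Kat6a -/- libraries at 0.755, 0.678, 1.46 and 0.793 CPM. The groups overlapped and the difference was -0.63 (SE 0.34), or -0.37 (SE 0.38) without wild-type replicate 1. In double heterozygotes it was at 0.548, 0.521, 1.69 and 0.662 CPM, with 3 libraries below all of wild type and the other inside its range. That difference was -1.31 (SE 0.44) with the batch term and -0.72 without it.

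**Figure D2:**
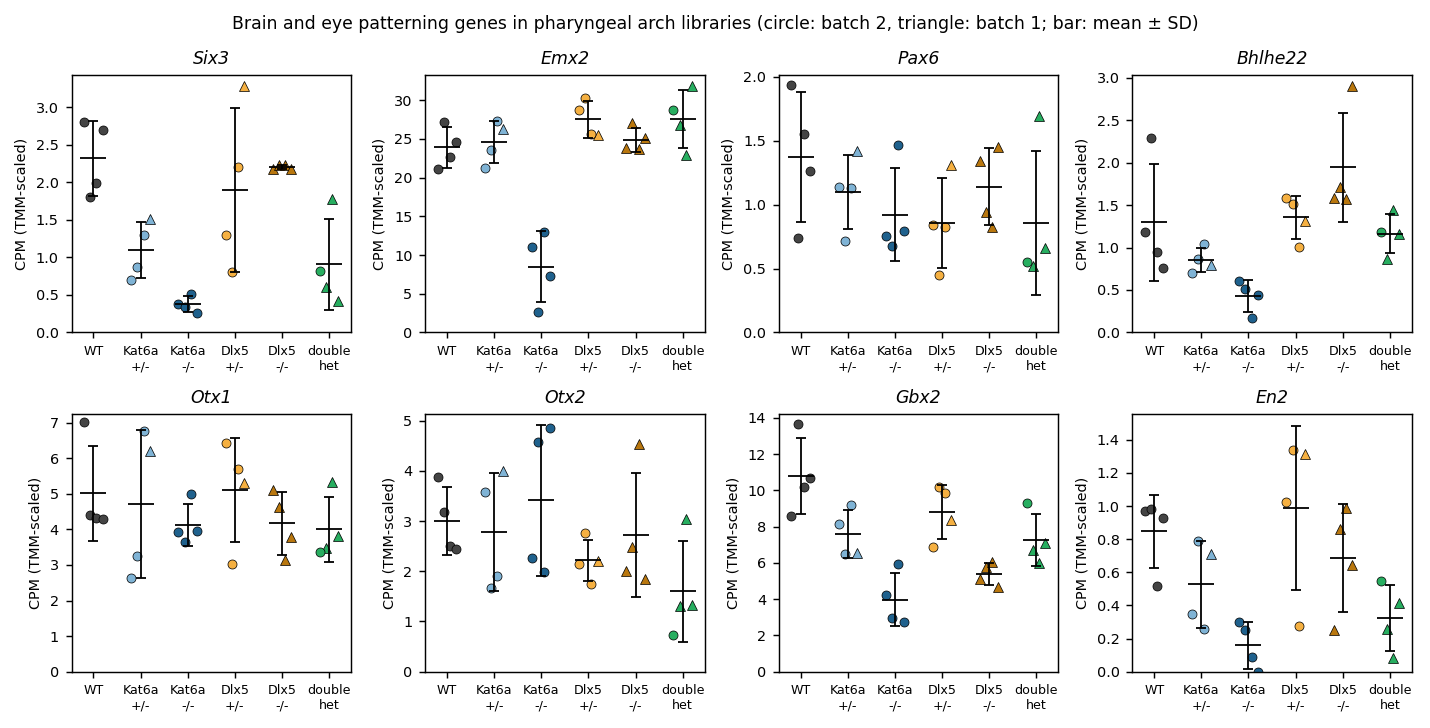
TMM-scaled CPM of the 8 tested genes in each library by genotype (circles batch 2, triangles batch 1; bar and whiskers, mean ± SD of 4 libraries). Kat6a -/- libraries lie below every wild-type library for Six3, Emx2, Bhlhe22, Gbx2 and En2 and overlap wild type for Pax6, Otx1 and Otx2; En1 is not drawn.

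Of the 8 tested genes, the fit called 5 lower in Kat6a -/- than in wild type: Six3, Emx2, En2, Gbx2 and Bhlhe22. None was called higher. Over all 14506 genes tested, 1.53% were called in this comparison, 1.06% lower and 0.469% higher. The same 5 genes lay without overlap below wild type, as did 3.54% of all genes. Since the genes were chosen with this contrast known, the counts describe the choice and nothing is read from them. The calls of Six3, Emx2 and Gbx2 were made under all 33 alternatives in processing, that of Bhlhe22 under 27 of 33 and that of En2 under 16 of 32. The calls of Bhlhe22 and En2 were lost in batch 2 alone, at -1.55 and -2.32, and without the neuron-rich libraries, at -1.27 and -2.53. Without wild-type replicate 1, the deepest library, the differences were -2.50 for Six3, -1.55 for Emx2, -1.54 for Gbx2, -1.60 for Bhlhe22 and -2.23 for En2.

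The 3 largest fitted differences, those of Six3, En2 and Bhlhe22 (-1.54), belonged to genes below 1 RPKM, while Pax6, also below 1 RPKM, was at -0.63. Emx2 and Gbx2, with the highest levels per length, were at -1.48 and -1.43, and Otx1 and Otx2 at -0.31 and 0.15. Against Kat6a +/- libraries, which share the Kat6a -/- libraries with the contrast above, the fit called 2 of the 8, Emx2 at -1.54 and Gbx2 at -1.0 (SE 0.20), beside 0.641% of all genes called, 0.524% lower. Six3 was at -1.28 (SE 0.44), En2 at -1.56 (SE 0.68) and Bhlhe22 at -0.97 (SE 0.41) there. Six3, Emx2, Gbx2 and Bhlhe22 did not overlap between the groups, as was so for 2.94% of all genes lying below. The call of Gbx2 was lost without Kat6a +/- replicate 3 or Kat6a -/- replicate 2 or 4, and without the neuron-rich libraries (-1.01), and in batch 2 alone both calls were lost, with values of -1.5 for Emx2 and -1.0 for Gbx2.

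**Figure D3:**
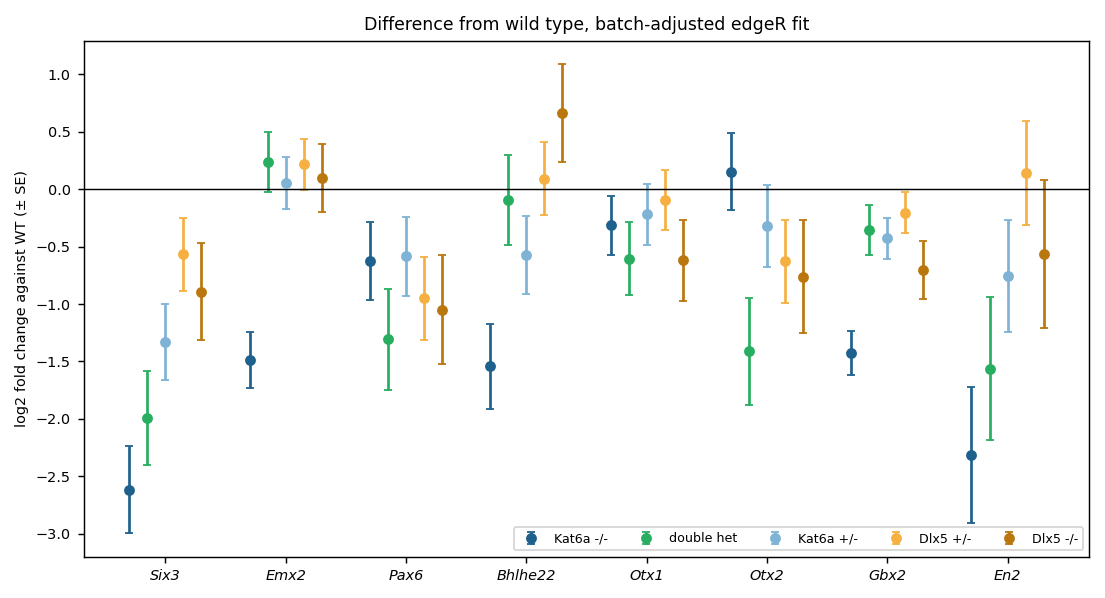
Fitted log2 difference from wild type with its standard error for the 8 tested genes (x axis) in each of the 5 other genotypes, from the batch-adjusted edgeR fit. The 5 comparisons share the wild-type libraries; Kat6a -/- lies at -1.43 or below for Six3, Emx2, Bhlhe22 and En2 and for Gbx2, and near 0 for Otx2 at 0.15.

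The double heterozygous contrast was also known when the genes were chosen, and its calls are descriptions from which nothing is read. In double heterozygotes 1 of the 8 genes, Six3, was called lower, beside 0.448% of all genes called and 0.152% called lower. It was also the only one without overlap with wild type, against 3.30% of all genes lying wholly below. That call was kept under 23 of 32 alternatives. It was lost in batch 2 alone (-1.51), without the batch term (-1.37), with the neuron score as a covariate (-1.84), and without wild-type replicate 4, Kat6a +/- replicate 4, Dlx5 +/- replicate 4, or double heterozygous replicate 1, 2 or 4. All 4 double heterozygous libraries were neuron-rich, against 1 of 4 in wild type, and the part of this in the levels cannot be told apart from genotype by leaving libraries out. Of the other genes, En2 was at -1.56 (SE 0.62), Otx1 at -0.60 (SE 0.32), Gbx2 at -0.35 (SE 0.22), Emx2 at 0.24 (SE 0.27) and Bhlhe22 at -0.09 (SE 0.39).

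The single heterozygotes gave no calls in the main edgeR fit. For Kat6a +/- this depended on the libraries: edgeR called 196 genes without wild-type replicate 1 and 1 in batch 2 alone, none among the 8. With all libraries, in Kat6a +/- against wild type edgeR found 0 genes (0%), DESeq2 found 80, and 1648 genes had an unadjusted edgeR p under 0.05. Of the 8 genes, 7 were below wild type in the fit and 1 above, and Six3 was the only gene of them without overlap, which held for 1.76% of all genes. In Dlx5 +/- the numbers were 0 (0%) for edgeR, 31 for DESeq2, and 1645 at an unadjusted p under 0.05. All 8 genes overlapped wild type there, while 1.74% of all genes lay wholly below, and the largest difference was that of Pax6 at -0.95 (SE 0.36, adjusted p = 0.316).

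In Dlx5 -/- against wild type none of the 8 genes was among the 8 called, 0.0551% of all genes. The fitted values and the raw levels of Six3 and Pax6 part here, in a comparison whose groups share no batch. Six3 had means of 2.20 and 2.32 CPM, yet the fit gave -0.89 (SE 0.42, adjusted p = 0.487) with the batch term and -0.09 without it. Pax6 was at -1.05 (SE 0.47, adjusted p = 0.483) with the term and -0.32 without it. The batch term is estimated from the 3 groups that span both batches.

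The comparison of Dlx5 -/- with Dlx5 +/- shares no library with the Kat6a -/- and double heterozygous contrasts; whether differences of the Dlx5 groups from wild type bore on the choice of genes is not known. It gave 0 genes (0%) by edgeR and 1 by DESeq2, and 1565 genes had an unadjusted edgeR p under 0.05. Gbx2 was the only one of the 8 without overlap, lying below as did 4.19% of all genes. The other differences were -0.71 (SE 0.55) for En2, -0.53 (SE 0.31) for Otx1, -0.32 (SE 0.36) for Six3, -0.13 (SE 0.45) for Otx2, -0.12 (SE 0.27) for Emx2 and -0.10 (SE 0.42) for Pax6, none past the test.

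None of the 8 genes had a slope on the neuron content of the libraries that passed the test. In a fit with group, batch and neuron score, 382 of 14506 genes (2.63%) had a slope that passed the test, 341 upward and 41 downward, and 0 of the 8. Per unit of score, the slopes were -0.19 (SE 0.09, adjusted p = 0.286) for Pax6, 0.16 (SE 0.08, adjusted p = 0.291) for Bhlhe22, 0.15 (SE 0.12) for En2, -0.12 (SE 0.06) for Otx1, -0.10 (SE 0.09) for Six3, 0.05 (SE 0.09) for Otx2, -0.04 (SE 0.06) for Emx2 and 0.01 (SE 0.04) for Gbx2. A miss of the threshold leaves slopes of that size possible.

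For comparison, Elavl3, a neuronal RNA-binding protein that is part of the score, had a slope of 1.36 (SE 0.04), and Sox10, a factor of crest-derived glia that is not, had 0.48 (SE 0.04, adjusted p = 3.7e-08). The crest glia markers Fabp7 and Foxd3 were called upward as well. Of the 7 tested forebrain regulators Emx1 was called downward at -0.16 (SE 0.04, adjusted p = 0.0345), and of 3 tested neural progenitor genes Nes was called upward at 0.06 (SE 0.02, adjusted p = 0.0384). No midbrain, isthmus, eye or lens gene was called.

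**Figure D4:**
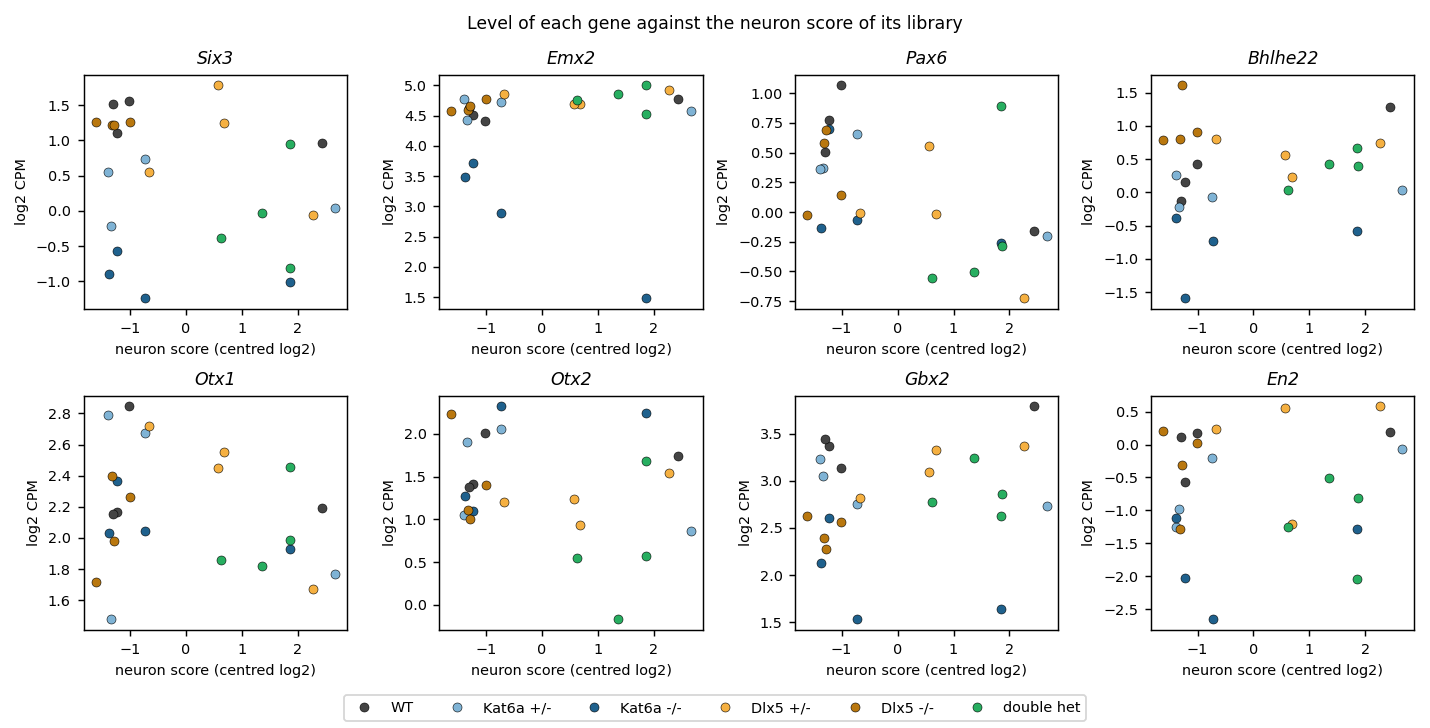
Level of each of the 8 tested genes (log2 CPM, prior count of 2) against the neuron score of the library (mean centred log2 CPM of 16 neuron markers), coloured by genotype. Of the 24 libraries 10 have a score above 0, and only 1 of these is Kat6a -/- (dark blue). Kat6a -/- libraries lie below every wild-type library for Six3, Emx2, Bhlhe22, Gbx2 and En2. For Six3, Gbx2 and En2 they overlap libraries of other genotypes.

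Other listed regulators of the same territories are given as a description, since which genes remain beside the 9 was settled with this contrast known. In Kat6a -/- against wild type 0 of 7 tested forebrain regulators passed the test, with a median difference of -0.27, and 0 of 4 midbrain and isthmus regulators (median 0.00), 0 of 6 eye and lens genes (median -0.07) and 0 of 1 hindbrain regulator. The median over all genes was 0.01. The forebrain regulator nearest to the threshold was Lhx2, a factor of the eye field and cortex, at -0.59 (SE 0.17, adjusted p = 0.0782). The summed level of the forebrain regulators was 24.6 to 34.5 CPM in wild type and 17.6 to 22.7 CPM in Kat6a -/-, without overlap. A large part of these sums was Lhx2, at 11.1 to 16.0 CPM in wild type and 8.31 to 9.89 CPM in Kat6a -/-. Lhx2 by itself thus lay below without overlap, as was so for 3.54% of all genes. Low sums were not particular to Kat6a -/-. They were 17.8 to 25.5 CPM in Kat6a +/-, 19.1 to 29.2 in Dlx5 -/-, 22.4 to 24.9 in double heterozygotes and 21.3 to 29.6 in Dlx5 +/-. The median forebrain differences from wild type were -0.51 in Kat6a +/-, -1.10 in Dlx5 -/-, -0.47 in double heterozygotes and -0.38 in Dlx5 +/-. Midbrain and isthmus genes (28.6 to 40.8 and 22.5 to 34.1 CPM) and eye and lens genes (25.6 to 38.4 and 23.9 to 31.5 CPM) overlapped between wild type and Kat6a -/-.

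Markers of the arch tissues were measured beside them. Of 10 arch mesenchyme markers 2 were lower in Kat6a -/-, Barx1 at -0.56 (SE 0.12, adjusted p = 0.0218) and Dlx2 at -0.36 (SE 0.09, adjusted p = 0.0295), and of 6 branchial muscle markers 1 was, Msc at -0.93 (SE 0.24, adjusted p = 0.0478). None of 8 surface epithelium markers or 5 pharyngeal endoderm markers passed the test. Dlx5 itself was lower in Kat6a -/- at -0.87 (SE 0.08, adjusted p = 1.46e-07). In double heterozygotes none of the tested forebrain, midbrain, isthmus, eye or lens genes was called, and of the neural progenitor genes Crb2, an apical polarity gene, was lower at -0.71 (SE 0.15, adjusted p = 0.0296).

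The genes whose levels ran most like each regulator over the 24 libraries, among 13475 genes with at least 1 CPM on average, differed between regulators. They share library, depth, batch and genotype, and the coefficients are descriptions with no test. Differences between groups were left in. A difference of Kat6a -/- shared with a regulator, known when the regulators were chosen, therefore raises the coefficient. For Emx2 they were Emx2os (Pearson r = 0.93), Zmat4 (0.92) and Smoc1 (0.91), a matricellular gene. Zmat4 was at 14.4 ± 2.60 CPM (SD, n = 4) in wild type and 5.36 ± 1.85 in Kat6a -/-, and Smoc1 at 154 ± 11.2 and 78.3 ± 18.1. For Gbx2 they were Dlx3 (0.87), Enpp2 (0.85) and Fbln5 (0.84), with Dlx3 at 100.5 ± 6.04 CPM in wild type and 55.2 ± 5.56 in Kat6a -/-. For Six3 they were Pebp1 (0.79), Six3os1 (0.78) and Itgb5 (0.77).

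For Bhlhe22 the nearest genes were Skida1 (0.84), Col23a1 (0.82) and Dlx1 (0.80), with Skida1 at 78.3 ± 6.77 CPM in wild type, 49.0 ± 3.35 in Kat6a -/- and 85.7 ± 1.19 in Dlx5 -/-. Otx1 ran most like Susd4 (0.82), Trp63 (0.81) and Col18a1 (0.80). Trp63, the factor of stratified epithelium, was at 97.0 ± 16.9 CPM in wild type and 99.5 ± 16.8 in Kat6a -/-. Otx2 ran most like Hopx (0.82), Csn3 (0.80) and Plpp2 (0.78), and Pax6 like Cobll1, Prss8 and Atp2c2 (each 0.76). En2, with a mean below 1 CPM, and En1 were left out of this comparison.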

How the data were processed

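RNA-seq was made from 24 libraries, 4 for each of 6 genotypes. The values deposited by the authors are raw counts of whole reads per Entrez gene, with gene lengths. The submitters' processing notes name CASAVA 1.8.2, featureCounts and mm10. The aligner, the annotation and the use of strand in counting are not stated in the sources used here. Entries without an identifier (0.182% to 0.259% of counts) were left out.

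Counts were tested with edgeR 4.0.16 in R 4.3.3: filterByExpr by group (14506 genes), TMM scaling, robust quasi-likelihood fit over the 24 libraries with terms for group and batch, and Benjamini-Hochberg adjustment over all genes, called at adjusted p under 0.05. Levels are TMM-scaled CPM, or RPKM where genes are compared; log2 CPM uses a prior count of 2. The standard error comes from the test statistic. Samples were grouped by the labels, which name 4 biological replicates and 2 facilities as batches. The fit was tested on simulated data. Replicates of a group differed by more than sampling noise.

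The genes and gene lists were chosen with earlier results of these data known. Named genes were the 9 regulators, the best expressed and the called genes of each list, and the 3 genes most correlated with each regulator; the antisense genes, the genes at 0 and the neural tube genes were chosen after their values were seen. Same-numbered replicates deviated together in every pair of wild type with Kat6a -/- (r 0.117 to 0.566), wild type with Kat6a +/- (0.183 to 0.656) and Kat6a +/- with Kat6a -/- (0.11 to 0.597); the labels give no origin for the numbers. Alternatives were DESeq2 1.42.0, RLE scaling, no filter, a stricter filter, no batch term, a replicate block, batch 2 alone, the neuron score as covariate, and leaving out neuron-rich libraries (score above 0) or each library in turn. Promoter windows are from RefSeq (GRCm38.p6), coordinates from RefSeq GRCm38, which mm10 names.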

Additional observations from a re-analysis of the deposited data

Results flagged for a closer look

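In 5 of 48 groups of 4 libraries tested, 1 library lay far from the other 3 by Dixon's test at its 95% critical value, which chance gives in about 1 of 20 groups. Otx1 was at 7.03 CPM in wild-type replicate 1, against 4.29 to 4.42 CPM in the others. En2 was at 0.519 CPM in wild-type replicate 3, against 0.925 to 0.982 CPM. Pax6 was at 1.69 CPM in double heterozygous replicate 3, against 0.521 to 0.662 CPM, and at 1.46 CPM in Kat6a -/- replicate 3, against 0.678 to 0.793 CPM. Bhlhe22 was at 2.90 CPM in Dlx5 -/- replicate 4, against 1.57 to 1.72 CPM.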

How the results depend on the processing

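No called value of the 8 genes changed sign. The number of genes called moved by over 1.5 times as follows; the cause was not tested. Kat6a -/- against wild type went from 222 to 98 in batch 2 alone and 56 without neuron-rich libraries, and ran from 122 to 444 with a library left out (highest without wild-type replicate 1, lowest without Kat6a -/- replicate 1). Double heterozygous against wild type went from 65 to 185 with DESeq2, 10 without the batch term, 9 in batch 2 alone and 16 with the neuron score, and ran from 1 (without double heterozygous replicate 1) to 169 (without wild-type replicate 1). Kat6a +/- went from 0 to 80 with DESeq2 and 1 in batch 2, and ran from 0 to 196 (without wild-type replicate 1). Dlx5 +/- went from 0 to 31 with DESeq2 and ran from 0 to 1. Dlx5 -/- against wild type went from 8 to 38 with DESeq2, 20 with the neuron score and 0 without neuron-rich libraries, and ran from 0 (without Kat6a +/- replicate 4) to 16 (without Dlx5 -/- replicate 3). Kat6a -/- against Kat6a +/- went from 93 to 147 with DESeq2, 49 in batch 2 and 10 without neuron-rich libraries, and ran from 50 (without Kat6a +/- replicate 2) to 127. Dlx5 -/- against Dlx5 +/- went from 0 to 1 with DESeq2, 2 without the batch term, 1 with the replicate block and 6 with the neuron score, and ran from 0 to 2. The neuron slope ran from 254 to 534.

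With the replicate block, pairing same-numbered libraries, the counts were 292, 46, 0, 0, 8 and 106 for Kat6a -/-, double heterozygous, Kat6a +/-, Dlx5 +/- and Dlx5 -/- against wild type and Kat6a -/- against Kat6a +/-, and 214 for the slope; it changed no call of the 8 genes. Batch 2 alone could not be fitted for Dlx5 -/-, nor the double heterozygotes without neuron-rich libraries. En2 in Kat6a -/- was not called in batch 2 alone, without neuron-rich libraries, or without wild-type replicate 1, 2 or 4, any 1 Kat6a -/- library, Kat6a +/- replicate 4, Dlx5 +/- replicate 1 or 4, double heterozygous replicate 2 or 4, or Dlx5 -/- replicate 2 or 4. Bhlhe22 was not called in batch 2 alone, without neuron-rich libraries, or without wild-type replicate 2 or Kat6a -/- replicate 2, 3 or 4. Levels of Six3, En2 and Bhlhe22 in Kat6a -/- rest on 8 reads or fewer per library.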
